A study of Mus musculus with 96 samples.

Results

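The genes of BMP and TGF-beta signaling described here were 52 ligands, receptors, Smads, inhibitors and targets, chosen by symbol from a list of the pathway and not by their counts. All 52 were among the 41575 gene symbols of the count table, 22493 of which had a count in at least 1 library. MuSeq is a multiplexed RNA-seq in which the cDNA of each sample is tagged with its own barcode and tagged samples share 1 library preparation. It was applied to 16 tissues of wild-type mice and of Scx-/- mice that lack scleraxis, a basic helix-loop-helix transcription factor of tendon and ligament progenitors, all aged 3 weeks. Each tissue had 3 replicates per genotype, which gave 96 libraries. The labels give genotype, age and tissue alone. Sex, strain and the mouse behind each library are not given in the sources used, and nothing shows that replicates are separate animals. P-values therefore measure the spread between libraries, which may be technical. In the comparison of 1 tissue with the others, differences among those other tissues enter that spread.

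Ligands of the TGF-beta family bind complexes of type I and type II serine/threonine kinase receptors at the cell surface. The type I receptor phosphorylates receptor-regulated Smads, which bind Smad4 and act on target genes in the nucleus, and co-receptors such as endoglin and betaglycan present particular ligands. The pathway is held back at several levels: noggin, gremlin, chordin and follistatin trap ligands outside the cell, Bambi is a receptor without kinase activity, FKBP12 (Fkbp1a) keeps the type I receptor inactive, Smad6 and Smad7 compete with the other Smads, and Ski and SnoN (Skil) repress Smad targets. In endothelium, the type I receptor ALK1 (Acvrl1), the type II receptor Bmpr2 and endoglin (Eng) form a receptor complex for circulating BMP ligands, and the genes are known for their mutations in vascular disease of the lung. In the limb the same family directs formation of bone and cartilage, and TGF-beta signaling induces Scx in tendon progenitors.

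More members were called higher in lung than in any other tissue, and the promoters of 3 of those 6 genes are shown first because these genes were raised together in one tissue. Smad6 is itself a target of BMP signaling and feeds back on it. Sequences and starts are those of RefSeq on GRCm38.p6, from 250 bases before the annotated start to 20 after it, each 270 bases long. Capitals mark the letters of a Smad-binding motif. The windows are chr9:64022040-64022309 on the minus strand for Smad6, chr1:59764029-59764298 on the plus strand for Bmpr2 and chr2:32646345-32646614 on the plus strand for Eng.
Smad6: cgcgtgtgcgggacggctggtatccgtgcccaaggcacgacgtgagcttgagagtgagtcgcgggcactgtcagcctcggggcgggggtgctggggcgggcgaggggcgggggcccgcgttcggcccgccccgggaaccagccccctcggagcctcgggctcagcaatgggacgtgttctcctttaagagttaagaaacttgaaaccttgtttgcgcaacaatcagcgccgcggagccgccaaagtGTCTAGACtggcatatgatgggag
Bmpr2: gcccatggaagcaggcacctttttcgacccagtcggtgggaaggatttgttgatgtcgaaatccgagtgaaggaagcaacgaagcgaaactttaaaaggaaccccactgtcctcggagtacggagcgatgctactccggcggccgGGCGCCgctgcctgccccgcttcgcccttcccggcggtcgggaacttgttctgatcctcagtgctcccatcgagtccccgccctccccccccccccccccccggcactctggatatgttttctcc
Eng: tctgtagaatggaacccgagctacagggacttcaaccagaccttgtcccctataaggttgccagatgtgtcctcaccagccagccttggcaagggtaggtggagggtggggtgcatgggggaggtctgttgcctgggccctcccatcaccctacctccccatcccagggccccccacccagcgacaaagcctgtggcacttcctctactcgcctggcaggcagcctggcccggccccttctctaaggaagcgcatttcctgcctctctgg

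Both motifs searched, GTCTAGAC (the palindromic Smad-binding element) and GGCGCC (a GC-rich element), read the same on both strands, and they did not overlap in these windows. In Smad6 the palindrome began at position -4 relative to the start, and in Bmpr2 the GC-rich element began at position -105. The Eng window held neither set of letters. Of the 52 members, 36 had at least 1 entry in the promoter table, 44 entries in all. Within 300 bases, 1 of these 44 entries (2.27%) held GTCTAGAC, against 0.213% of all 32851 entries, and 15 (34.1%) held GGCGCC, against 11.9% of all entries. Those 15 entries belonged to 13 of the 36 members. Base composition was not matched between members and all entries, so these shares are a description.

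Total counts ranged from 11244 to 1658192 per library (median 251640), and 16 libraries held fewer than 100000 counts. Levels are given as CPM, which scales the count of a gene to the total of its library, and levels are compared between tissues or genotypes for 1 gene at a time, because reads enriched at 3′ ends do not allow levels of different genes to be compared. Scx had 80 counts in 12 of the 48 wild-type libraries and 9 counts in 1 of the 48 Scx-/- libraries, which was replicate 1 of cartilage. In cartilage the wild-type libraries held 8 counts of Scx, so that Scx did not separate the genotypes there. The libraries labelled adipose carried 312271 to 397028 CPM of pancreatic acinar markers and 5.99 to 169 CPM of adipocyte markers, and the vascular libraries carried 3678 to 13588 CPM of brown fat markers. Skeletal muscle markers reached 96366 to 122249 CPM in cartilage and 19234 to 79154 CPM in bone, beside 1746 to 12694 CPM of chondrocyte markers in cartilage and 1740 to 4057 CPM of osteoblast markers in bone. Lung libraries carried 60858 to 98611 CPM of lung epithelial markers.

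The members were shallow as a group. A member had between 8 counts (Nog) and 11687 counts over all libraries, with a median of 803.5. A count was present in all 16 tissues for 24 members and in fewer than 8 tissues for 3 members. Together they took 0.541 to 0.676% of the counts in lung, 0.328 to 0.552% in vascular, 0.336 to 0.478% in bladder, 0.0620 to 0.108% in liver and 0.0420 to 0.0619% in adipose. The lowest lung library lay within the range of the vascular libraries, and every lung library lay above every liver and every adipose library.

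The first question was whether the level of a member depended on the tissue. By the quasi-likelihood F test of edgeR over all 96 libraries, with genotype as a covariate and Benjamini-Hochberg adjustment over 22493 genes, 46 of 52 members differed among tissues at an adjusted p under 0.05, where 53.9% of all genes did. The 6 members that did not pass were Smad1, Smad2, Acvr2b, Id3, Gdf5 and Nog. Among the roles, all 3 TGF-beta ligands, all 3 latent TGF-beta binding proteins, all 5 type I receptors, both co-receptors, both inhibitory Smads, Smad4 and all 5 intracellular inhibitors passed, while 3 of 5 receptor-regulated Smads did. In the mean of the 6 libraries, 15 members were highest in lung, 6 in bladder, 5 each in bone and vascular, and 4 each in hippocampus and rectum. Adipose held the lowest mean of at least 13 members and liver of at least 8. Members whose lowest mean of 0 CPM was shared by several tissues were not counted under each of those tissues. Bmp7, for example, was at 0 CPM in liver but was counted under vascular.

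**Figure D1:**
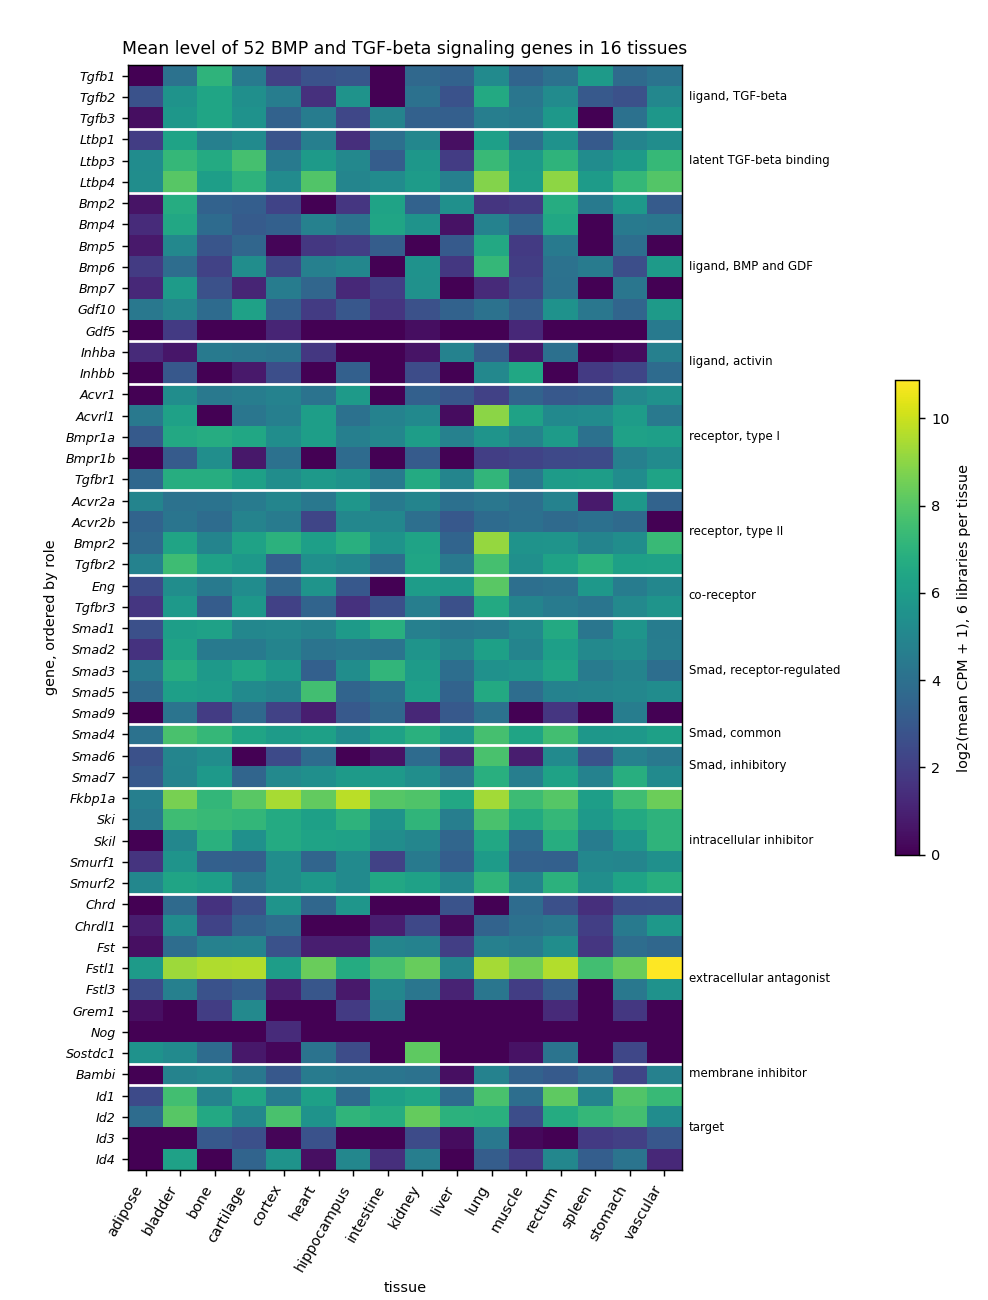
Mean level of the 52 genes (rows, grouped by role) in 16 tissues (columns), as log2(mean CPM + 1) over the 6 libraries of a tissue, on a colour scale that starts at 0. The lung column is bright for Acvrl1, Bmpr2, Eng and Smad6, the kidney column for Sostdc1, and the adipose column is dark for most genes.

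The highest tissue was compared between the genotypes, whose libraries are separate samples. Among the 50 members with a mean of at least 20 CPM in their highest tissue, 15 (30%) had the same highest tissue in wild-type and Scx-/- mice, against 39.7% of all genes at that level (5566 of 14036). With medians in place of means it was 21 of 47 members (44.7%) and 5381 of 12975 genes (41.5%), so the order of the shares turned with the summary used. Those 15 included Acvrl1, Bmpr2, Eng, Smad6, Bmp5, Bmp6, Tgfbr1 and Tgfbr3 in lung, Fstl1 and Gdf5 in vascular, Sostdc1 and Id2 in kidney, Fkbp1a in hippocampus, Ltbp3 in cartilage and Id4 in bladder. For most other members the leading tissues lay within each other's spread. Id1, a direct target of BMP Smads, averaged 288 CPM in rectum, where its libraries ran from 76.2 to 482 CPM, and 244 CPM in stomach.

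A stricter comparison contrasted the 6 libraries of a tissue with the 90 remaining ones, with a call at an adjusted p under 0.05 and a log2 fold change above 1. The other tissues were pooled as 1 group, so differences among them entered the error of the test. The comparison gave 16 member-tissue pairs of 832, or 1.92% against 2.7% of all gene-tissue pairs, from 15 members in 8 tissues. A further 30 pairs in 8 tissues were lower, where 1.45% of all pairs were. Lung led with 6 of 52 members, against 1.58% of all genes called higher in lung.

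Acvrl1 (chromosome 15, 101128522 to 101145336, plus strand, GRCm38) encodes the type I receptor ALK1. Its level in lung was 506, 556 and 301 CPM in the wild-type replicates 1 to 3 and 620, 721 and 317 CPM in the Scx-/- replicates. All 6 lung libraries lay above every one of the 90 others, of which the highest reached 296 CPM and the median was 17 CPM. The fitted difference was 10.9-fold (log2 3.45, SE 0.62, edgeR adjusted p = 2.24e-05). Muscle came next, with a mean of 75.4 CPM.

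Bmpr2, the type II receptor for BMP ligands, measured 904, 235 and 338 CPM in wild-type lung and 488, 743 and 662 CPM in Scx-/- lung. The lung libraries were spread widely, and 2 of the 90 other libraries reached the lowest of them. The difference was 6.71-fold (log2 2.75, SE 0.48, edgeR adjusted p = 8.92e-06). Its next tissue was vascular, at 164 CPM.

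Eng, the co-receptor endoglin, measured 231, 235 and 508 CPM in wild-type lung and 157, 273 and 205 CPM in Scx-/- lung. One of the 90 other libraries, at 166 CPM, lay within that range. The difference was 5.87-fold (log2 2.55, SE 0.63, edgeR adjusted p = 0.00728). Kidney followed with a mean of 63.3 CPM, and in intestine no library held a count of Eng.

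Smad6, the inhibitory Smad of BMP signaling whose promoter is printed above, measured 260, 171 and 132 CPM in wild-type lung and 306, 277 and 149 CPM in Scx-/- lung. Over the 90 other libraries the median was 0 CPM, and 1 of them, at 161 CPM, exceeded the lowest lung library. The difference was 12.3-fold (log2 3.62, SE 0.67, edgeR adjusted p = 3.32e-05). No count of Smad6 was found in cartilage or hippocampus.

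The 2 ligands called in lung were less regular. Bmp6 ranged from 28.0 to 338 CPM over the 6 libraries (median 128), and 20 of the 90 other libraries reached its lowest value. The difference was 5.78-fold (log2 2.53, SE 0.72, edgeR adjusted p = 0.0278). Bmp5 was at 64.3, 364 and 56.4 CPM in wild-type lung and at 0, 83.5 and 0 CPM in Scx-/- lung, so 2 of its 6 libraries held no count. Its difference was 7.21-fold (log2 2.85, SE 0.81, edgeR adjusted p = 0.0302).

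No difference between the genotypes was called for the 6 genes in lung, with edgeR adjusted p-values between 0.741 for Bmp5 (log2 fold change -1.88, SE 1.5) and 0.982 for Bmp6 (-0.21, SE 1.05). For Acvrl1 the difference was 0.54 (SE 0.56), for Smad6 0.55 (SE 0.82) and for Bmpr2 0.45 (SE 0.53) on the log2 scale.

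Depth in lung was 46732 to 341964 counts in wild-type and 107301 to 227467 in Scx-/- libraries. The highest Eng value rested on 27 counts and the highest Bmp5 value on 17 counts. Calls for Acvrl1, Bmpr2, Smad6 and Eng held when any single lung library was left out. In wild-type libraries alone all 6 calls were lost, with an edgeR adjusted p of 0.0862 for Acvrl1, 0.0754 for Bmpr2, 0.0507 for Smad6 and 0.406 for Eng. In Scx-/- libraries alone the calls for Acvrl1, Bmpr2 and Smad6 were kept and the other 3 were lost. Eng, Bmp5 and Bmp6 also lost theirs when all libraries of any 1 replicate number were left out, where the adjusted p for Eng was 0.0680 to 0.136. Bmp6 lost its call without Scx-/- replicate 1 (adjusted p = 0.0805), Scx-/- replicate 2 (0.148), wild-type replicate 1 (0.0600) or wild-type replicate 3 (0.158). Bmp5 lost it without Scx-/- replicate 2 (adjusted p = 0.154), wild-type replicate 1 (0.0716) or wild-type replicate 2, where the fold fell to log2 2.03 (0.350).

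**Figure D2:**
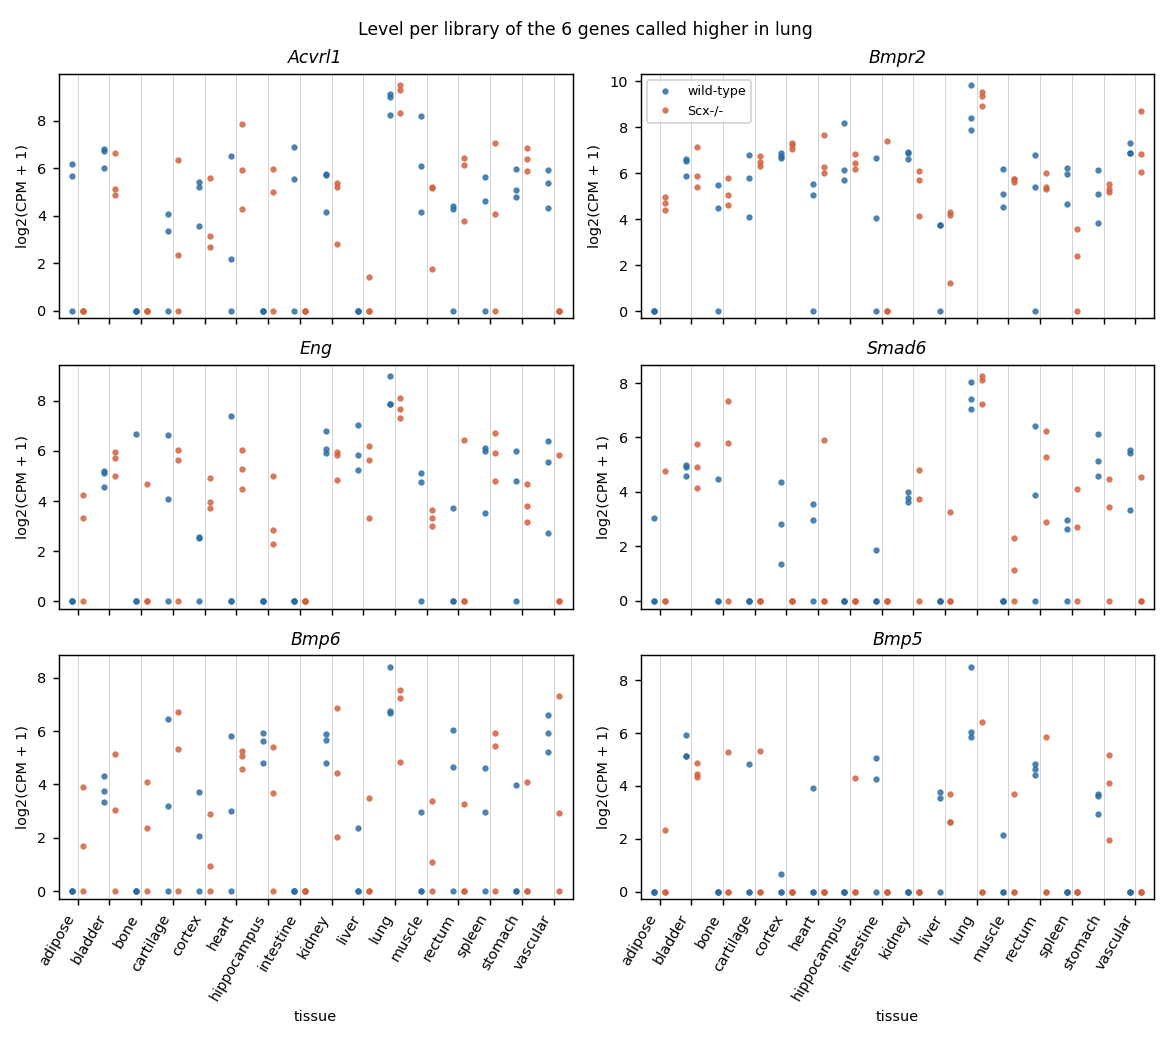
Level of the 6 genes called higher in lung in each of the 96 libraries, as log2(CPM + 1), by tissue, with wild-type libraries in blue and Scx-/- libraries in orange. The lung libraries of Acvrl1 lie above every other library, while 2 Scx-/- lung libraries of Bmp5 lie at 0.

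The summed level of 10 endothelial markers (Pecam1, Cdh5, Kdr, Tek, Tie1, Cldn5, Esam, Egfl7, Emcn and Flt1) was highest in lung. It was 1648 to 3661 CPM in the 6 lung libraries and at most 948 CPM in any other library. In lung 9 of the 10 had a count, and Cldn5 was at 0 in every library of the series. Across 16 tissue means of log2(CPM + 1), Eng had a Pearson correlation with the summed markers of 0.72 in wild-type and 0.64 in Scx-/- mice, and 0.63 and 0.47 over the 15 tissues without lung. For Acvrl1 these were 0.43 and 0.49, and 0.19 and 0.26 without lung. For Bmp6 they were 0.68 and 0.75, and 0.56 and 0.67 without lung. For Smad6 they were 0.51 and 0.62, and 0.24 and 0.41 without lung. Both values of a tissue come from the same libraries, depth differs between tissues, and the correlations are a description. In bulk tissue, more endothelial cells and more RNA per cell cannot be told apart. Counts per 100 endothelial marker counts, summed over the 6 libraries of a tissue, placed lung 6th of 16 tissues for Acvrl1 (16.1, where intestine was highest at 30.8) and for Smad6 (7.28, where rectum was highest at 15.2). Lung was 8th for Bmpr2 (21.1, highest in cortex at 84.2) and for Bmp5 (2.02), 10th for Bmp6 (4.0) and 11th for Eng (7.28, highest in liver at 33.3). These ratios spread widely by library. For Acvrl1 they ran from 9.29 to 33.8 in lung libraries, and the intestine value rested on 33 counts in 2 of 6 libraries. For Bmpr2 the lung libraries (13.7 to 24.7) all lay below the cortex libraries (66.5 to 127). For Eng they ran from 4.41 to 22.1 in lung and from 7.53 to 100 in liver. The part of endothelial cells in the lung calls was not tested.

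Antagonists outside the cell gave 5 calls in 4 tissues. Sostdc1 (chromosome 12, 36314139 to 36318452, plus strand), a BMP and Wnt antagonist also named ectodin or USAG-1, was raised in kidney, where 3.34% of all genes were called higher. Its level was 288, 197 and 211 CPM in wild-type kidney and 391, 417 and 202 CPM in Scx-/- kidney. Every kidney library lay above the other 90, the highest of which was at 118 CPM and the median at 0. The difference was 35.6-fold (log2 5.15, SE 0.75, edgeR adjusted p = 1.22e-08), the largest fold of the 16 pairs. It was also called in wild-type libraries alone, but not in Scx-/- libraries alone (log2 3.74, edgeR adjusted p = 0.0962). Kidney libraries carried 14741 to 31724 CPM of tubule and podocyte markers, the list that defines the organ here.

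Fstl1, a secreted follistatin-like glycoprotein of mesenchymal cells, was raised in the vascular libraries, where 0.542% of all genes were called higher. It ran from 1082 to 2384 CPM there (median 1949) and 4 of the 90 other libraries reached that range, the highest at 1429 CPM. The difference was 4.52-fold (log2 2.18, SE 0.44, edgeR adjusted p = 0.000747), and cartilage was next with a mean of 785 CPM. The call was lost in wild-type libraries alone (edgeR adjusted p = 0.171), in Scx-/- libraries alone (0.0711) and without replicate 1 of every group (0.0860). Fstl1 was lower than in the other tissues in cortex (65.8 ± 11.2 CPM, SD, n = 6), hippocampus (103 ± 86.8) and liver (30.2 ± 30.1).

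Chrd, which encodes the BMP-binding chordin, was raised in cortex, where 11.9% of all genes were called higher. Cortex libraries held 34.3 to 60.7 CPM (median 50.2) against a median of 0 elsewhere, and 5 of 90 other libraries reached the lowest of them. The difference was 6.24-fold (log2 2.64, SE 0.74, edgeR adjusted p = 0.00464). In hippocampus, the other brain tissue, the mean was 51.4 CPM, with 16.9, 0 and 21.0 CPM in wild-type and 116, 76.2 and 78.4 CPM in Scx-/- libraries, and no call was made. Both outcomes depended on the setting. Hippocampus was called with library totals, with filterByExpr and in thinned libraries, and the cortex call was lost in thinned libraries (edgeR adjusted p = 0.460), without replicate 2 of every group (0.0567) and in Scx-/- libraries alone (0.294). Nog, which encodes noggin, had all of its 8 counts in cortex, and its call there (edgeR adjusted p = 0.0264) was lost without wild-type replicate 3 (log2 1.41 in place of 2.23, adjusted p = 0.154) or Scx-/- replicate 3 (0.0947). It was also lost in thinned libraries, against the mean of the other tissues' coefficients, in either genotype alone and without any 1 replicate number, and Nog did not pass the filter of filterByExpr.

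Grem1, the antagonist gremlin, was called in cartilage, where 0.502% of all genes were higher. It measured 23.0, 16.1 and 10.9 CPM in wild-type and 28.9, 34.1 and 90.6 CPM in cartilage labelled Scx-/-, so the genotypes did not overlap. Only 4 of the 90 other libraries reached its lowest value, although 1 of them, at 141 CPM, lay above all 6. The difference was 18.8-fold (log2 4.23, SE 0.86, edgeR adjusted p = 0.00112), and it was lost without Scx-/- replicate 3 (log2 3.60, adjusted p = 0.0640) and in wild-type libraries alone (0.687). Grem1 did not pass the filter of filterByExpr.

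Fkbp1a (chromosome 2, 151542483 to 151561692, plus strand) encodes the immunophilin FKBP12, which binds type I receptors and calcium release channels. It was called in both brain tissues. In cortex it was nearly constant, at 657 to 733 CPM (706 ± 33.8, SD, n = 6), and in hippocampus it was at 727 to 993 CPM (844 ± 91.0), against a median of 216 CPM in the 90 libraries outside each tissue. The differences were 2.89-fold in cortex (log2 1.53, SE 0.46, edgeR adjusted p = 0.00912) and 2.57-fold in hippocampus (log2 1.36, SE 0.46, adjusted p = 0.0451), where 4.86% of all genes were called higher. The hippocampus call was lost whichever of its 6 libraries was left out, with adjusted p-values from 0.0673 to 0.122. Both brain calls were lost in thinned libraries, in either genotype alone and without replicate 2 of every group, where the edgeR adjusted p for cortex was 0.271, 0.168 (wild-type), 0.0692 (Scx-/-) and 0.0515. Fkbp1a was lower in spleen (66.7 ± 50.6 CPM) and in adipose (24.7 ± 23.6 CPM).

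The remaining 3 calls were of ligands at low levels. Inhba, the activin A subunit, was called in liver at 4.08 to 88.2 CPM (median 19.2), where 5.06% of all genes were called, with a 6.15-fold difference (log2 2.62, SE 0.79, edgeR adjusted p = 0.0169). It was lost without wild-type replicate 3 (0.138) or Scx-/- replicate 1 (0.0549), with library totals in place of TMM (0.105) and without any 1 replicate number (0.0662 to 0.247). Gdf5, a ligand of joint formation, was called in vascular at 62.0, 6.47 and 4.58 CPM in wild-type and 0, 51.9 and 0 CPM in Scx-/- libraries (log2 4.16, SE 0.93, adjusted p = 0.00471). That call was lost without wild-type replicate 1 (log2 3.02, adjusted p = 0.331) or Scx-/- replicate 2 (0.0562), and no library outside vascular exceeded 10.7 CPM. Neither Inhba nor Gdf5 was called in either genotype alone, and Gdf5 did not pass the filter of filterByExpr.

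Inhbb, the activin B subunit, was called in muscle (edgeR adjusted p = 0.0397), where 2.22% of all genes were, but the call rested on 1 library. Wild-type replicate 1 held 16 counts in a total of 30409, or 526 CPM, while the other 5 muscle libraries were between 0 and 4.75 CPM. Without that library the difference turned to -0.19 (log2, SE 1.44, adjusted p = 0.945).

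**Figure D3:**
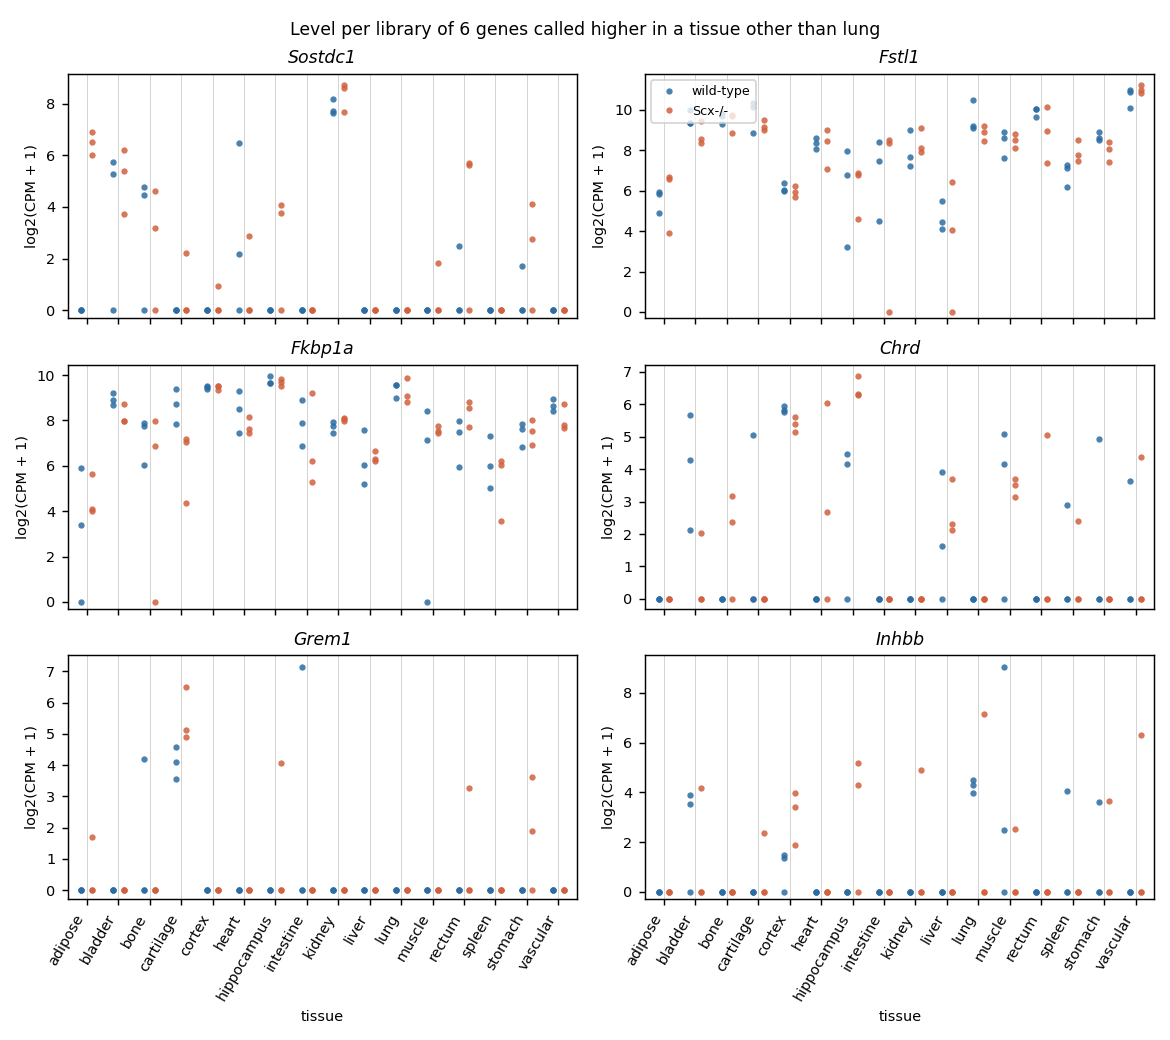
Level of 6 genes called higher in a tissue other than lung in each of the 96 libraries, as log2(CPM + 1), by tissue, with wild-type libraries in blue and Scx-/- libraries in orange. All 6 kidney libraries of Sostdc1 lie above the rest, and the muscle value of Inhbb is high in 1 wild-type library alone.

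Lower levels were spread over 8 tissues. Liver held 9 of the 30 pairs, where 3.16% of all genes were called lower: Acvrl1, Bmpr2, Bmp4, Bmp7, Bambi, Fstl1, Id4, Ltbp1 and Ltbp3. A single count of Acvrl1 was found in the 6 liver libraries and none of Bmp7 or Id4. Hippocampus held 6 (background 4.13%), cortex 4 (8.30%), spleen 4 (2.45%), adipose 2 (1.31%), intestine 2 (1.02%), kidney 2 (1.42%) and muscle 1 (0.227%). The muscle gene was Id2, a target that opposes basic helix-loop-helix factors, at 0 to 11.9 CPM in muscle and a median of 106 CPM elsewhere. In kidney, by contrast, Id2 ran from 280 to 417 CPM, and kidney was its highest tissue in both genotypes. The lower calls of members were not counted under the alternatives. Over all gene-tissue pairs, lower calls went from 5207 of 359888 to 9210 with library totals. They fell to 309 of 329568 in wild-type libraries alone, 482 of 333632 in Scx-/- libraries alone and 863 to 932 without 1 replicate number.

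Members with no call of a higher level still had an order of tissues, and those named next were chosen after their values were seen. Tgfb1 was highest in bone in the mean (133 CPM), but its bone libraries ran from 24.1 to 497 CPM and spleen followed at 59.6 CPM. Ltbp4, which binds latent TGF-beta in the elastic matrix, averaged 517 CPM in rectum and 461 CPM in lung, and those ranges overlapped (132 to 1055 CPM and 342 to 621 CPM). Ltbp3 was highest in cartilage at 101 to 318 CPM, and Gdf10, a BMP-like ligand of mesenchyme, was highest there too, at 24.2 to 102 CPM. Neither was called higher, and their means were 1.24 times that of lung for Ltbp3 and 1.23 times that of vascular for Gdf10. Bmp2 and Bmp4 were highest in rectum and bladder, whose means differed by 1.02 and 1.03 times.

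Over the 16 tissue means of log2(CPM + 1), the targets were related only in part. Id1 and Smad6 had a Pearson correlation of 0.63 (Spearman 0.76) in wild-type and 0.60 (0.67) in Scx-/- mice, and without lung 0.63 (0.74) and 0.51 (0.60). Id2 and Id4 gave 0.61 (0.67) and 0.52 (0.65). Id3 and Id4 gave -0.23 (-0.17) and 0.04 (-0.07). Both genes of a pair were read in the same libraries and depth differs between tissues, so these values are descriptions and not tests.

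Of a list of 61 other genes of the pathway, 60 were in the table and 55 had a count. Of these, 25 were called higher in a tissue, in 26 of 880 gene-tissue pairs (2.95%, where 2.7% of all pairs were), and 34 pairs were called lower (3.86%, where 1.45% of all pairs were). Liver carried the largest folds, with Hamp, the hepcidin gene that BMP signaling controls in hepatocytes, at 626 ± 500 CPM (SD, n = 6) against a mean of 4.76 CPM in the other tissues, although 1 Scx-/- liver library had no count. Inhbc (77.5 ± 38.4 CPM) and Gdf2 (21.2 ± 24.0 CPM, with no count in 1 wild-type library), which encodes the circulating ligand of ALK1, were also raised in liver, by 152-fold and 76.7-fold. Inhbe was called in liver on wild-type libraries only, with 14, 9 and 6 counts there (29.1, 36.7 and 21.2 CPM) and none in the Scx-/- liver libraries or the 90 libraries of other tissues. With those 90 together set to 3 counts, the ratio of summed counts over totals was 101-fold, or 62.2-fold without wild-type replicate 1. That ratio leaves out the spread between libraries, and the fitted difference was 38.2-fold (log2 5.25, SE 0.90). The sclerostin gene Sost was raised in vascular (189 ± 163 CPM, 97.2-fold), with no count in 1 Scx-/- library, and Msx2 in bladder (30.8 ± 32.0 CPM, 38.4-fold), with no count in 1 wild-type library.

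The second question was whether loss of Scx changed the members in any tissue. In each tissue the 3 Scx-/- libraries were tested against the 3 wild-type libraries by edgeR, and 738 of 832 member-tissue pairs had a count and were tested. No pair reached an adjusted p under 0.05, where 0.0914% of all gene-tissue pairs did, and the lowest adjusted p was 0.0614. DESeq2 also called 0 pairs, and 39 pairs (5.28%) had an unadjusted p under 0.05 in edgeR, where 4.01% of all gene-tissue pairs did. At the rule of the study, used here as a threshold only (unadjusted p under 0.05 and more than 2-fold), 33 pairs from 23 members passed, or 4.47% against 3.71% of all gene-tissue pairs. Of these, 15 were higher and 18 lower in Scx-/- mice, and in 19 of them a genotype had no count at all. With 3 libraries in each genotype, a p that misses the threshold does not show that the levels were alike. The genotypes did not overlap in 82 pairs, or 11.1% against 7.96% of all pairs, 43 above and 39 below.

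A shift shared by the tissues was not found either. With tissue as a covariate over all 96 libraries, 0 of 52 members passed (edgeR, background 0.485%), and 5 (9.62%) had an unadjusted p under 0.05, where 8.13% of all genes did. These were Fst (log2 1.11, SE 0.38, adjusted p = 0.230), Sostdc1 (1.16, SE 0.43), Tgfbr3 (0.72, SE 0.31) and Acvr1 (0.76, SE 0.34), all higher in Scx-/- libraries, and Fstl3 (-0.90, SE 0.42). The interaction of tissue and genotype passed for 0 of 52 members (edgeR, background 0.142%) and had an unadjusted p under 0.05 for 7 (13.5%, where 5.31% of all genes did), the lowest for Acvrl1 (adjusted p = 0.355).

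**Figure D4:**
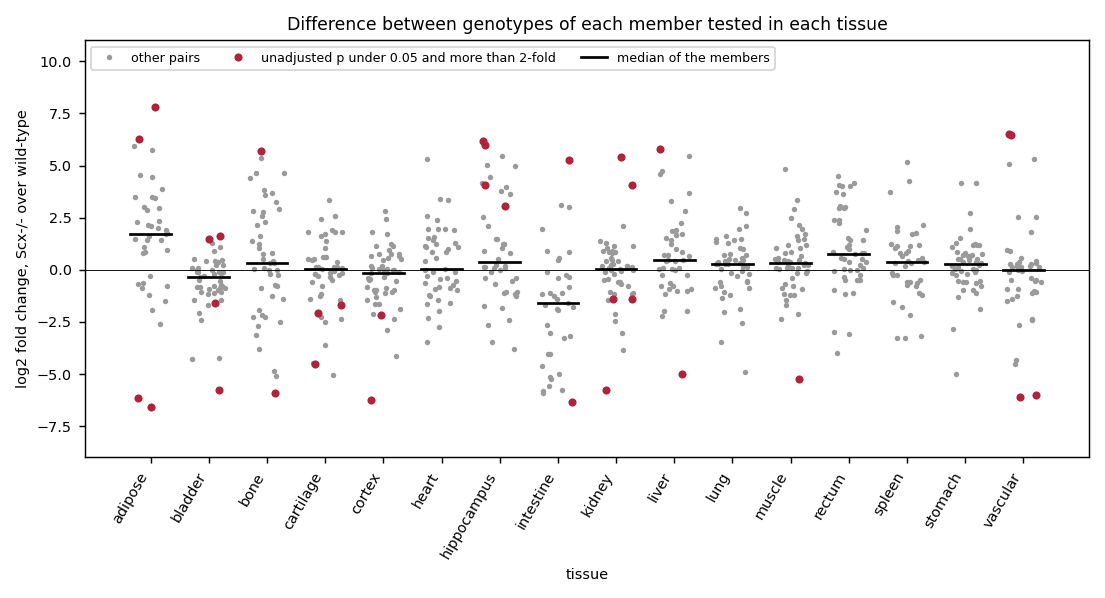
Fitted log2 fold change of Scx-/- over wild-type for each member tested in each of the 16 tissues, with pairs past the rule of the study in red, the other pairs in grey and the median of the members as a black bar. The median lies at 1.73 in adipose and at -1.61 in intestine, where the medians over all genes were 1.47 and -1.63.

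In adipose and intestine the members shifted with all genes. The median log2 fold change of the members was 1.73 in adipose, where the median of all genes was 1.47, and -1.61 in intestine, where that of all genes was -1.63. Totals in adipose were 100469 to 140132 counts for wild-type and 333668 to 498158 for Scx-/- mice. In intestine they were 93927 to 386890 counts for wild-type and 26500 to 54955 for Scx-/- mice. Over the other 14 tissues the members' median lay from -0.37 in bladder to 0.77 in rectum, and it was farthest from that of all genes in spleen (0.36 against -0.18) and vascular (-0.02 against -0.51). Scaling by library totals in place of TMM moved the members' fold changes by a median of -0.30 in adipose, 0.24 in intestine and 0.32 in vascular, and no pair named below changed direction.

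In cartilage the inhibitors of the pathway were taken as a list. They were chosen with an account of these same samples in view, so their count is not independent evidence of a direction. Of the 16 inhibitory members, 14 had a count in cartilage. No member of the list passed the adjusted threshold (0.0222% of all genes in cartilage did), and 3 passed the rule of the study, all lower in cartilage labelled Scx-/-, where 1.46% of all genes were lower by that rule. The genotypes did not overlap for 4 members of the list below (3.27% of all genes) and 1 above (3.31%). Over all 49 members tested in cartilage, 6 lay below and 2 above. Those outside the list were Ltbp4 and Smad5 below and Acvr1 above. The median log2 fold change of the 14 was -1.57, against 0.04 for all 49 members tested and 0.07 for all genes.

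Fkbp1a measured 230, 677 and 428 CPM in wild-type cartilage (50, 168 and 118 counts) and 132, 19.5 and 145 CPM in cartilage labelled Scx-/- (32, 4 and 40 counts). All 3 libraries labelled Scx-/- lay below all 3 wild-type libraries. The log2 fold change was -2.09 (SE 0.57, edgeR unadjusted p = 0.000254, adjusted p = 0.572). Ski, which represses Smad targets in the nucleus, measured 152, 395 and 134 CPM in wild-type and 33.1, 107 and 58.0 CPM in cartilage labelled Scx-/-, again without overlap. Its log2 fold change was -1.71 (SE 0.74, edgeR adjusted p = 0.769). Skil, its paralog, was at 0, 48.4 and 199 CPM in wild-type and at 0, 9.74 and 0 CPM in cartilage labelled Scx-/-, so the genotypes overlapped at 0.

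Smurf2, a ubiquitin ligase of Smads and receptors, and Bambi also had all libraries labelled Scx-/- below the wild-type ones, on 25 against 4 and 21 against 7 counts. Grem1 had all 3 above. Fstl1, on 735 against 443 counts, measured 464, 1310 and 1120 CPM in wild-type and 509, 575 and 732 CPM in cartilage labelled Scx-/-, with overlap (log2 -0.61, SE 0.39, edgeR adjusted p = 0.769). Smad6 and Nog had no count in cartilage.

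Without the cartilage library labelled Scx-/- replicate 1, which held counts of Scx, the Fkbp1a difference was -2.33 (unadjusted p = 0.000340) and that of Ski was -1.40 (0.0770). Without wild-type replicate 1 Fkbp1a reached an adjusted p of 0.0453 (log2 -2.36), and without wild-type replicate 2 Ski fell to -1.09 (unadjusted p = 0.272). Pancreatic acinar markers moved with the genotype in cartilage, at 330 to 836 CPM in wild-type and 1972 to 2228 CPM in libraries labelled Scx-/-, with 7 of 9 genes above in each of the latter. Adipocyte markers were at 1286 to 2341 and 1135 to 1265 CPM. Skeletal muscle markers overlapped (96366 to 112245 and 97360 to 122249 CPM), as did chondrocyte markers (4391 to 6822 and 1746 to 12694 CPM). Their part in the differences was not tested.

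**Figure D5:**
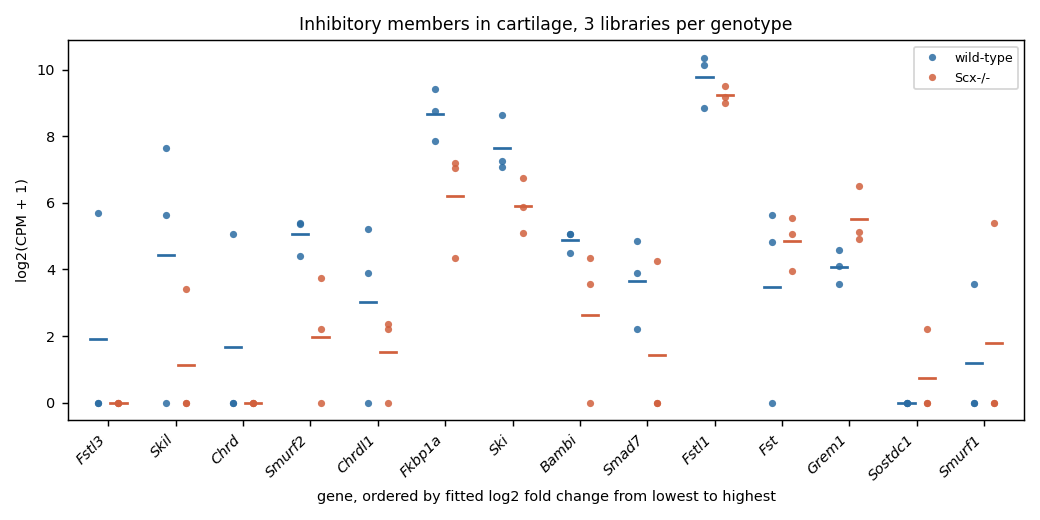
Level of the 14 inhibitory members with a count in cartilage, as log2(CPM + 1), in 3 wild-type (blue) and 3 Scx-/- (orange) libraries, with bars at the means. The genotypes do not overlap for Smurf2, Fkbp1a, Ski and Bambi, with Scx-/- below, and for Grem1, with Scx-/- above.

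In bone, Bmpr1b, a type I receptor of chondrogenesis, was at 52, 167 and 21.2 CPM in the wild-type replicates and at 0 in all 3 Scx-/- replicates. These were 6, 10 and 1 counts in libraries of 47131 to 115368 counts, against Scx-/- libraries of 42272 to 240564 counts. With the Scx-/- libraries together set to 3 counts, the level from summed counts was 10.4-fold lower. This bound and those below leave out the spread between libraries. The fitted log2 fold change was -5.90 (SE 2.70, edgeR adjusted p = 0.636, unadjusted p = 0.0289). Leaving out wild-type replicate 2, or any of the Scx-/- replicates, took the unadjusted p above 0.05, to between 0.0531 and 0.107, and the bound fell to 5.85-fold without wild-type replicate 2 and to 4.25-fold without Scx-/- replicate 1. In bone 7 of 22 marker lists did not overlap between the genotypes, among them erythroid markers (469 to 676 CPM in wild-type and 1041 to 2639 in Scx-/- libraries) and tubule and podocyte markers (416 to 1288 and 79.0 to 166), and their part was not tested. At the rule of the study 1 member was higher and 1 lower in bone, where 3.51% of all genes passed.

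In muscle, where 1 member and 4.54% of all genes passed the rule of the study, the lowest p of any member was that of Inhbb (log2 -5.25, SE 1.28, edgeR unadjusted p = 4.22e-05, adjusted p = 0.0614). The difference came from the 16 counts of the smallest wild-type library described above, and without it the fold change was -0.31 (unadjusted p = 0.915), while without Scx-/- replicate 1 it was -8.49. In heart 0 of 45 members tested passed the rule of the study, where 3.41% of all genes did. Neither heart nor muscle had a member without overlap that passed the rule.

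Among pairs of the other tissues that passed the rule of the study without overlap and with a mean of at least 20 CPM in a genotype, the 10 with the lowest p are given here, and none of them passed adjustment. Of these 10, only Sostdc1 in adipose, Bmpr1a in cortex and Fst in kidney kept an unadjusted p under 0.05 whichever library of the tissue was left out. Sostdc1 in the adipose-labelled libraries had no count in wild-type and 28, 30 and 59 counts in Scx-/- replicates (63.7, 89.9 and 118 CPM). With the wild-type libraries together set to 3 counts, the bound from summed counts was 10.6-fold higher, or 6.31-fold without wild-type replicate 1. The fitted log2 fold change was 7.78 (SE 2.26, edgeR adjusted p = 0.563). Gastric mucosa markers were at 637 to 985 CPM in wild-type and 193 to 298 CPM in Scx-/- libraries there. They were 1 of 6 of the 22 marker lists that lay lower in all 3 Scx-/- libraries, with adipocyte (124 to 169 and 5.99 to 29.6 CPM), skeletal muscle (471 to 1065 and 315 to 396 CPM), chondrocyte, colonic and squamous markers. Their part was not tested. In the same libraries Smad4, the common Smad, had 0 counts in wild-type and 13, 15 and 11 in Scx-/- replicates. Its bound from summed counts was 3.54-fold higher, or 2.10-fold without wild-type replicate 1 (fitted log2 6.27, SE 3.02, edgeR adjusted p = 0.614). Its unadjusted p was 0.0586 to 0.0766 when 1 library was left out.

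Bmpr1a, the BMP type I receptor ALK3, measured 35, 60.7 and 98.9 CPM in wild-type cortex and 9.65, 20 and 12.4 CPM in Scx-/- cortex, where every library was deep (616505 counts or more). Its log2 fold change was -2.16 (SE 0.67, edgeR adjusted p = 0.746). Smurf1, a ubiquitin ligase like Smurf2, rested on 2 counts in wild-type and 32, 44 and 14 counts in Scx-/- hippocampus (log2 4.06, SE 1.94, adjusted p = 0.762), where totals were 118567 to 184695 counts in wild-type and 255264 to 511781 in Scx-/- libraries. The log2 fold change ran from 3.53 without wild-type replicate 3 to 7.43 without wild-type replicate 2, and the unadjusted edgeR p reached 0.122 without Scx-/- replicate 2. In each brain tissue 2 of 22 marker lists did not overlap between the genotypes. In Scx-/- hippocampus neuron markers were higher (6926 to 7369 against 6659 to 6730 CPM) and adipocyte markers lower (2.07 to 13.7 against 21.0 to 118 CPM). In Scx-/- cortex brown fat markers were lower (116 to 149 against 167 to 189 CPM) and cardiomyocyte markers higher (3.64 to 10.2 against 0 to 1.81 CPM). Their part was not tested.

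Kidney gave 3 of the 10, and 4.32% of all genes passed the rule of the study there. Fst, the activin-binding follistatin, had 0, 0 and 6 counts in wild-type and 14, 24 and 12 counts in Scx-/- kidney (log2 4.06, SE 1.37, edgeR adjusted p = 0.494). Without wild-type replicate 3, which held all 6 wild-type counts, the log2 fold change was 7.83, and without wild-type replicate 1 it was 3.44. Bmpr2 measured 116, 120 and 98.2 CPM in wild-type and 51.4, 67.5 and 16.5 CPM in Scx-/- kidney (log2 -1.38, SE 0.59, edgeR adjusted p = 0.791), and without 1 library its unadjusted p reached 0.0712. Ltbp4 measured 74.8, 93.2 and 93.7 CPM in wild-type and 33.5, 70.6 and 0 CPM in Scx-/- kidney (log2 -1.39, SE 0.68, edgeR adjusted p = 0.791). Without Scx-/- replicate 3 its log2 fold change was -0.85 (unadjusted p = 0.167), and without Scx-/- replicate 2 it was -2.27. Of 22 marker lists, 2 did not overlap between the genotypes in kidney. Tubule and podocyte markers were at 21096 to 31724 CPM in wild-type and 14741 to 17606 CPM in Scx-/- kidney. Dentate gyrus markers were at 47.6 to 50.2 and 82.5 to 101 CPM, and totals were 672218 to 1015500 and 242429 to 447350 counts. Their part in these values was not tested.

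The last 3 were in liver and vascular. Smad3, the receptor-regulated Smad of TGF-beta, had 14, 7 and 7 counts in wild-type and 0, 1 and 0 counts in Scx-/- liver, although the Scx-/- libraries were the deeper (log2 -4.98, SE 2.15, edgeR adjusted p = 0.746), and without 1 library its log2 fold change ran from -6.59 (without Scx-/- replicate 2) to -4.46 (without Scx-/- replicate 1, unadjusted p = 0.0728). In liver 7 of 22 marker lists did not overlap between the genotypes. Enterocyte markers were at 2991 to 6271 CPM in wild-type and 1786 to 2620 CPM in Scx-/- libraries, gastric mucosa markers at 254 to 595 and 160 to 234 CPM, and pancreatic acinar markers at 185 to 269 and 385 to 605 CPM. Adipocyte and colonic markers were also lower, and neuron and squamous markers higher, in all 3 Scx-/- libraries. Their part in the liver values was not tested. In vascular, Acvrl1 had 21, 3 and 9 counts in wild-type and none in Scx-/- libraries (log2 -6.01, SE 2.95, edgeR adjusted p = 0.672). With the Scx-/- libraries together set to 3 counts, its bound from summed counts was 4.83-fold lower. The bound was 2.52-fold without Scx-/- replicate 1, and the unadjusted p reached 0.112 without wild-type replicate 1. Smad5 had none in wild-type and 4, 1 and 17 counts in Scx-/- libraries (log2 6.48, SE 2.64, edgeR adjusted p = 0.672). Its bound from summed counts was 16.7-fold higher. Without Scx-/- replicate 3, which held 17 of the 22 counts, the bound was 5.28-fold (unadjusted p = 0.122). It was 8.57-fold without wild-type replicate 1 and 26.2-fold without Scx-/- replicate 1. Of 22 marker lists, 2 did not overlap in vascular, brown fat and colonic. Brown fat markers were at 7207 to 13588 CPM in wild-type and 3678 to 6189 CPM in Scx-/- vascular libraries, and their part was not tested.

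Of the other genes of the pathway, 613 gene-tissue pairs were tested between the genotypes, 0 passed adjustment in edgeR, 23 (3.75%) had an unadjusted p under 0.05, where 4.01% of all pairs did, and 21 (3.43%) passed the rule of the study, where 3.71% of all pairs did. They included Gdf15 in liver, a stress-induced ligand of the family named after its values were seen. It had 0 counts in wild-type and 13, 15 and 43 counts in Scx-/- libraries (log2 7.32, SE 2.23, edgeR adjusted p = 0.145). With the wild-type libraries together set to 3 counts, its bound from summed counts was 12.3-fold higher. The bound was 6.95-fold without Scx-/- replicate 3 and 6.46-fold without wild-type replicate 1.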

How the data were processed

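Total RNA of wild-type and Scx-/- mice, with 3 replicates for each of 16 tissues, was reverse transcribed with sample barcodes, pooled and sequenced. The authors aligned the reads to mm10 with Bowtie2 and deposited whole-number counts per gene from HTSeq, without normalization. Software versions, the strand setting and any use of molecular identifiers are not given in the sources used, so overlapping or antisense genes cannot be separated. Total counts were 11244 to 1658192 per library.

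Genes with at least 1 count in the libraries of a fit were tested with edgeR 4.0.16 (R 4.3.3), TMM scaling, robust quasi-likelihood F tests and Benjamini-Hochberg adjustment over all genes of that fit. Genotypes were compared within each tissue (3 against 3 libraries), and each tissue was compared with the other 15 with genotype as a covariate. Further fits over all 96 libraries tested any difference among tissues, a genotype difference shared by tissues, and their interaction. CPM, correlations, markers and promoters were computed in Python 3.11.15, and promoter sequences are those of RefSeq. The genotype of each library was taken from its label. Replicates of a group differed beyond counting noise in all 96 pairs (lowest chi-square over its degrees of freedom, 6.93). Replicate numbers showed no pairing of wild-type with Scx-/- libraries within a tissue. Correlations of their same-numbered deviations ran from -0.27 to 0.067 and exceeded 0.1 throughout in 0 tissues. Between tissues of 1 genotype, same-numbered libraries had a mean correlation of 0.029 in wild-type and 0.024 in Scx-/- mice. For other numbers it was -0.014 and -0.012. These values cannot show whether a number stands for 1 mouse. The tests were checked on simulated data, in which most changes between 3 and 3 libraries, large ones included, were not recovered after adjustment.

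The members and lists were chosen with earlier results of these data known. Named were members with an adjusted p under 0.05 between genotypes, those past an unadjusted p under 0.05 and 2-fold without overlap (all in bone, cartilage, muscle and heart, and the 10 with the lowest p elsewhere at a mean of at least 20 CPM), Bmpr1b in bone, up to 4 tissue calls per role with the same highest tissue in both genotypes, members called across tissues, and the 6 other pathway genes with the largest folds. Other members that are named, among them Chrd, Grem1, Inhba, Inhbb, Skil, Smurf2, Bambi and the genes called lower, were chosen after their values were seen. Alternatives were RLE size factors, library totals, filterByExpr, DESeq2 1.42.0, thinned libraries, a replicate block, either genotype alone and leaving out libraries. The fold changes and p-values of the authors were not used.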

Additional observations from a re-analysis of the deposited data

Results flagged for a closer look

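The highest and the lowest library were compared with the other 5 in the 16 groups of 6 libraries behind the tissue calls. In 6 groups a library stood apart by a Dixon ratio above 0.625, each time the highest. With both ends tried, chance gives about 1 in 20 groups for normally distributed values, which low counts in groups called for a high level are not. In lung, Eng reached 508 CPM in wild-type replicate 3 (27 counts of 53197, with the next library at 273 CPM), and Bmp5 reached 364 CPM in wild-type replicate 2 (17 counts of 46732, next 83.5 CPM). Inhbb reached 526 CPM in muscle wild-type replicate 1, on 16 counts of 30409, with the next library at 4.75 CPM. Inhba reached 88.2 CPM in liver wild-type replicate 3 (25 counts, next 20.8 CPM). Grem1 reached 90.6 CPM in cartilage Scx-/- replicate 3 (25 counts, next 34.1 CPM). Nog reached 6.49 CPM in cortex wild-type replicate 3, on 4 counts.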

How the results depend on the processing

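Depth limits these results: 16 libraries held fewer than 100000 counts, and many member levels rest on under 50 counts in a tissue. The 33 member-tissue pairs at the rule of the study between genotypes became 30 with RLE size factors (26 shared), 30 with library totals (24), 27 with DESeq2 (19), 13 with filterByExpr (11) and 13 with the replicate block (11), and 29 to 36 when 1 library was left out. No pair passed adjustment except Inhbb in muscle with RLE size factors (1 pair), and 0 to 1 passed when 1 library was left out. The numbers that the block used showed no pairing of the genotypes within a tissue. In lung alone did all 3 replicates correlate best with their own number. The 3 inhibitory members lower in cartilage were 2 to 3 when 1 library was left out, with medians from -2.27 to -1.15. The 46 members differing among tissues became 35 in thinned libraries, 36 in wild-type libraries alone and 38 to 41 without 1 replicate number. Of all genes, 7517 of 20817 differed in thinned libraries and 8654 of 20598 in wild-type libraries alone. Without replicate 1, 2 or 3 these were 9813 of 21239, 10121 of 21559 and 10143 of 21662 genes. The 16 pairs higher in a tissue became 22 with library totals (15 shared) and 138 of 832 against the mean of the other tissues' coefficients (15). They became 14 in thinned libraries (12), 4 in wild-type libraries alone (3), 4 in Scx-/- libraries alone (4) and 7 to 16 with libraries left out. Of all gene-tissue pairs, 9919 of 359888 were called with library totals and 35187 of 359888 against that mean. In thinned libraries 6481 of 333072 were, in wild-type libraries alone 3970 of 329568 and in Scx-/- libraries alone 3784 of 333632. Against that mean the members' share lay above that of all pairs, while in the main fit it lay below. The 15 members with the same highest tissue became 17 with TMM scaling, 12 in thinned libraries and 21 of 47 by medians. Inhbb in muscle against the other tissues (log2 3.67) ran from -0.53 without replicate 1 to 4.96 without replicate 3, and turned to -1.33 in Scx-/- libraries alone and to -0.19 without muscle wild-type replicate 1. The contrast with the mean of the other tissues' coefficients gave each tissue its own coefficient. It therefore differed from the main test in its contrast and in its error. Where not given by fewer samples or genes or by that contrast, the cause was not tested.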
